A study of Mus musculus with 26 samples.

Results

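Fasting added to a cold challenge was examined in mouse brown adipose tissue, the fat depot that burns fuel to make heat, by comparing 6 libraries from cold plus fasting with 8 libraries from cold alone. These 14 libraries of the 26 in the series were chosen by their labels, and both genotypes were pooled with genotype as a block. All mice were 2 months old and carried floxed alleles of Klf15, a transcription factor gene. Mice called FF here had the genotype KLF15 flox/flox and no Cre, and mice called BKO had the genotype Ucp1-Cre/+;K15F/F, in which the promoter of the brown adipocyte gene Ucp1 drives Cre. The cold group held 4 FF and 4 BKO libraries, and the cold plus fasting group held 3 FF and 3 BKO libraries. The titles give each library its own animal number. The durations of the cold and of the fast, the temperature, and the feeding state of the cold group beyond the words of its label are not given in the sources used here. Mice with Ucp1-Cre but without floxed alleles were not analysed here, and cells that do not express Ucp1 keep Klf15 in BKO mice.

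Klf15, checked first because it is the targeted gene, averaged 14.1 ± 3.45 FPKM (SD, n = 4) in FF and 2.42 ± 0.334 FPKM (SD, n = 4) in BKO mice in the cold. In cold plus fasting it averaged 17.8 ± 3.35 FPKM (SD, n = 3) in FF and 3.34 ± 0.483 FPKM (SD, n = 3) in BKO mice. FPKM expresses sequenced fragments per length of transcript and per mapped fragments of the library. The summed FPKM of the 14 libraries lay between 423365 and 501068, and 11345 to 11760 genes per library reached 1 FPKM; read counts were not used here, so depth and counting error are unknown. The labels number the libraries, and 3 of the 4 FF cold libraries (replicates 2, 3 and 4) have numbers of 8 or below while the other 11 have numbers above 8. BKO cold plus fasting replicate 3 stood apart from the others, at 32.12 on a first principal component on which the other 13 libraries lay between -13.89 and 8.43. Its summed level of 7 red cell genes was 996 FPKM, against at most 547 in the other 5 cold plus fasting libraries, and its summed level of 12 skeletal muscle genes was 184 against at most 87.3 FPKM. The 8 cold libraries spanned 342 to 701 FPKM for the red cell genes and 24 to 230 FPKM for the muscle genes.

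In the cold, sympathetic nerves release noradrenaline onto brown adipocytes, and cyclic AMP signalling then drives lipolysis, mitochondrial uncoupling through Ucp1, and transcription of thermogenic genes. Brown fat of fed animals also takes up glucose under insulin and turns it into fatty acids, through ATP citrate lyase, acetyl-CoA carboxylase and fatty acid synthase, whose genes respond to the factors SREBP and ChREBP. Fasting lowers insulin and raises glucocorticoids, and is known to turn adipose tissue from fat synthesis to fat release.

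Fasting on top of cold left most transcripts within a narrow band around their level in cold alone. Of 12093 genes that reached 1 FPKM in 3 or more of the 14 libraries, 8 were lower and 0 were higher in cold plus fasting at an adjusted p under 0.05 (limma on log2(FPKM + 1), two-sided, Benjamini-Hochberg over all genes), which is 0.0662% called lower and 0% called higher. At an unadjusted p under 0.05 there were 420 genes above and 688 below, 3.47% and 5.69% of those tested. The median log2 difference was -0.01, and the 5th to 95th percentiles ran from -0.21 to 0.17. Differences beyond 1 log2 unit were seen in 20 genes, of which none was called; among those with a well known product were Nr4a1, a nuclear receptor gene induced by cyclic AMP, at -1.92, Fgf1, a fibroblast growth factor gene, at 1.14, and the heat shock gene Hspa1b at 1.16. The 95% interval of the difference lay within 0.5 log2 units of 0 for 94.0% of the genes and within 1 unit for 98.9%. In 26 genes (0.215%) all 6 cold plus fasting libraries lay below all 8 cold libraries, and in 8 (0.0662%) all 6 lay above. Expression profiles correlated with a median r of 0.9867 between libraries of 1 group and 0.986 between libraries of the 2 conditions. In bulk tissue, fewer cells of a type and less RNA per cell cannot be told apart, and this holds for every difference given here.

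**Figure D1:**
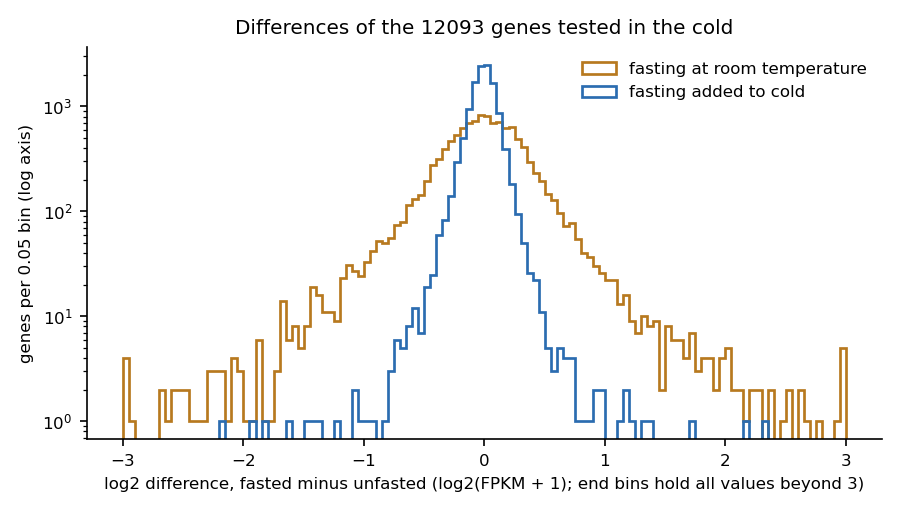
Number of genes (log axis, bins of 0.05) by log2 difference, fasted minus unfasted, for fasting added to cold (blue) and fasting at room temperature (ochre), over the 12093 genes tested in the cold. In the cold 95 genes lay beyond 0.5 log2 units and 20 beyond 1, so the blue curve is narrow around -0.01.

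The 8 genes that fell coded for a receptor of adipocytes, a sterol enzyme, a metal reductase and proteins of the matrix, cytoskeleton and signalling. Hcar1 (ENSMUSG00000049241.5, GENCODE M21 on GRCm38, chr5:123876736-123880020, minus strand) codes for the lactate receptor, which lowers cyclic AMP and restrains lipolysis in adipocytes. Its lowest, median and highest values were 5.57, 7.45 and 10.9 FPKM in the 8 cold libraries and 2.79, 3.73 and 5.09 FPKM in the 6 cold plus fasting libraries. The groups did not overlap, and Hcar1 fell by 0.82 ± 0.13 (SE) on the log2 scale (limma, adjusted p = 0.0265, lower in 6 of 6 libraries). It was the largest fall of the 8, with -0.67 in FF and -0.96 in BKO mice.

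Pmepa1 (chr2:173224458-173276533, minus strand), whose product is a membrane protein that dampens TGF-beta signalling, ran from 28.2 through a median of 35.4 to 39.1 FPKM in cold and from 16.2 through 21.7 to 24.1 FPKM in cold plus fasting. The groups were separate, with a difference of -0.70 ± 0.10 (SE; limma, adjusted p = 0.0191). Nes (chr3:87971078-87980451, plus strand), which codes for nestin, an intermediate filament of progenitor and vessel cells, ran from 6.29 through 7.17 to 8.94 FPKM in cold and from 3.99 through 4.41 to 5.84 FPKM in cold plus fasting. These groups were separate too, with a difference of -0.60 ± 0.09 (SE; limma, adjusted p = 0.0191). Col27a1 (chr4:63214004-63334991, plus strand), a fibrillar collagen gene, ran from 13.6 through 15.6 to 16.9 FPKM in cold and from 9.20 through 10.4 to 13.5 FPKM in cold plus fasting. The highest fasted library, FF replicate 2, came close to the lowest cold one, and the difference was -0.50 ± 0.07 (SE; limma, adjusted p = 0.0191).

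Steap4 (chr5:7960457-7982213, plus strand) codes for a metalloreductase of iron and copper that is abundant in fat. It ran from 31.5 through a median of 35.5 to 41.3 FPKM in cold and from 20.8 through 26 to 28.6 FPKM in cold plus fasting, without overlap, and fell by 0.48 ± 0.08 (SE; limma, adjusted p = 0.0219). Dhcr7 (chr7:143823145-143848410, plus strand) codes for 7-dehydrocholesterol reductase, which makes cholesterol in the last step of its synthesis. It ran from 17.5 through 19.5 to 24.7 FPKM in cold and from 13.9 through 14.5 to 16.7 FPKM in cold plus fasting, again without overlap, and fell by 0.41 ± 0.06 (SE; limma, adjusted p = 0.02). Sh3bp5 (chr14:31359880-31436078, minus strand), whose product binds SH3 domains and the kinase JNK, ran from 28.8 through 33.8 to 36.4 FPKM in cold and from 22.5 through 25.3 to 28.5 FPKM in cold plus fasting, with the groups almost touching (difference -0.38 ± 0.06 SE; limma, adjusted p = 0.0265). Nap1l5 (chr6:58905233-58907076, minus strand), an imprinted gene of the nucleosome assembly protein family, ran from 5.03 through 6.66 to 8.16 FPKM in cold and from 3.38 through 4.26 to 5.05 FPKM in cold plus fasting. It was the only one of the 8 whose groups overlapped, by FF cold plus fasting replicate 1 at 5.05 against BKO cold replicate 1 at 5.03 FPKM (difference -0.50 ± 0.08 SE; limma, adjusted p = 0.02).

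**Figure D2:**
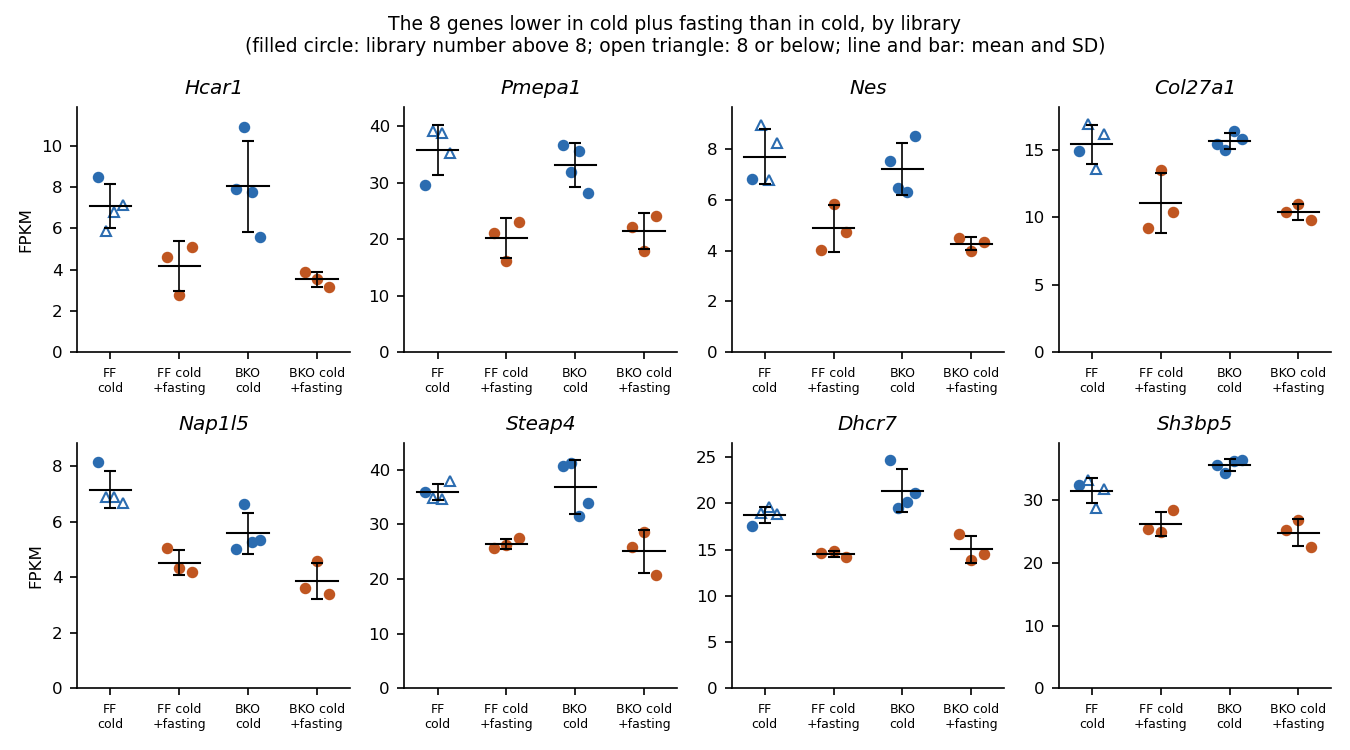
FPKM of the 8 genes called lower, 1 point per library, in FF and BKO mice in cold (blue) and cold plus fasting (orange); open triangles are the 3 FF cold libraries with numbers of 8 or below, and lines with bars are group means and SDs. In 7 of the 8 panels every orange point lies below every blue point, and in Nap1l5 the FF point at 5.05 FPKM lies just above the BKO point at 5.03 FPKM.

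All 8 differences were negative in both genotypes and under each alternative that was run, but the calls were close to the threshold. When each of the 14 libraries was left out in turn, Pmepa1, Nes and Dhcr7 stayed under an adjusted p of 0.05 in all 14 fits, Col27a1 in 13, Nap1l5 in 11, Steap4 in 8, Hcar1 in 6 and Sh3bp5 in 3. Counting any gene, 4 were called without BKO cold plus fasting replicate 1; 5 were called without FF cold replicate 1, FF cold replicate 4, BKO cold replicate 1 or FF cold plus fasting replicate 2, 6 without the outlying BKO cold plus fasting replicate 3, and 14 without FF cold plus fasting replicate 3. Some fits with 1 library left out also called rises. Without BKO cold plus fasting replicate 2 there were 2, Hspa1b among them, and without BKO cold plus fasting replicate 1 there was 1, Cdkn1a. Without FF cold replicate 2, FF cold plus fasting replicate 1 or FF cold plus fasting replicate 3 there was 1 each. With a covariate for library number (above 8 or not) 0 genes passed (1019 at an unadjusted p under 0.05), and the adjusted p of the 8 genes lay between 0.0864 and 0.0888. Within the 11 libraries numbered above 8, which leaves 5 cold libraries against 6, 0 of 11964 genes were called (933 at an unadjusted p under 0.05, 7.8%), and the 8 genes kept differences of at least 0.41 below 0 with adjusted p between 0.155 and 0.19. The order of the 8 changed in a limma fit of all 26 libraries on 12702 genes. There Sh3bp5 (adjusted p = 0.00877) and Nes (0.0149) passed, while Pmepa1 stood at 0.286 and Dhcr7 at 0.407. The rest of the 8 lay between 0.135 and 0.312 in that fit.

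Promoter windows are shown for the called genes with the largest falls that have an entry in RefSeq, Hcar1 and Nes, and for Nap1l5 and Dhcr7, whose windows hold motifs that were searched. The search covered exact matches on both strands to CACGTG (E-box, bound by ChREBP and clock factors), GTAAACA (forkhead), TGACGTCA (cAMP response element), CCAAT and TTGCGCAA (C/EBP palindrome). Each window has 300 bases, from 250 before the transcript start to 50 after it, on GRCm38.p6, and capitals mark the matches. The first lies at chr5:123879954-123880253 on the minus strand, the second at chr3:87970843-87971142 on the plus strand, the third at chr6:58907077-58907376 on the minus strand and the last, 1 of 3 starts listed for its gene, at chr7:143829964-143830263 on the plus strand.
Hcar1: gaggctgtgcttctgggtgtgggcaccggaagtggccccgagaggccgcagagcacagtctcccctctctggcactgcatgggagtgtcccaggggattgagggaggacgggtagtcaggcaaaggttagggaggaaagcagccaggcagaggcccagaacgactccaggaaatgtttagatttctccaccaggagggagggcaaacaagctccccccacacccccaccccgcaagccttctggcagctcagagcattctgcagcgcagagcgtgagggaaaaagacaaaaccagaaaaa
Nes: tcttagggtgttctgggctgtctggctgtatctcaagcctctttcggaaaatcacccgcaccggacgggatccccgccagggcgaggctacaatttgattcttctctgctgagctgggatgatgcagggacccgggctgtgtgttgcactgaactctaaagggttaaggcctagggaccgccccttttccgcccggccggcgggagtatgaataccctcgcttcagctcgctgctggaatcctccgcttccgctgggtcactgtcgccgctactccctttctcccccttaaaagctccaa
Nap1l5: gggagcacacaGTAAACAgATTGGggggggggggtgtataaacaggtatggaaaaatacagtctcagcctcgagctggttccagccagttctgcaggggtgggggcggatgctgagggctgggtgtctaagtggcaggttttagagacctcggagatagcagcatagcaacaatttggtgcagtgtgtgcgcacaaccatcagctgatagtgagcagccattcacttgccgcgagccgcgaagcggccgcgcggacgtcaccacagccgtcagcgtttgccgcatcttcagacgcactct
Dhcr7: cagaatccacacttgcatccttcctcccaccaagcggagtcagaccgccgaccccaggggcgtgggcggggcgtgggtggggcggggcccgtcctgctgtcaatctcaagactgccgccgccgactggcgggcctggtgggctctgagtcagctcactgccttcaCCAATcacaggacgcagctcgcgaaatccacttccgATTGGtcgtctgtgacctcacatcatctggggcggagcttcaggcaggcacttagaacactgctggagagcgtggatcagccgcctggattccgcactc
The 2 largest falls with an entry hold none of the 5 motifs in these windows. Nap1l5 has GTAAACA at position 12 and CCAAT, read on the other strand, at position 20, counted from the first base printed. Dhcr7 has CCAAT at position 166 and, on the other strand, at position 202, and a second of its starts has CACGTG. Over the 10 windows of the 7 called genes with an entry, CCAAT was in 2, GTAAACA in 1 and CACGTG in 1, and the other motifs were in none; over all 32851 windows the shares were 37.4%, 3.65% and 7.15%. A match describes these letters and shows no binding.

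Cholesterol synthesis was the pathway whose genes lay furthest below 0 as a group apart from the immediate-early genes. Of 22 members tested, Dhcr7 fell, 0 rose and 21 did not pass the test; 19 lay below 0, and their median was -0.24 against -0.01 over all genes. At an unadjusted p under 0.05, 13 members lay below and 1 above, where 5.69% and 3.47% of all genes did. Mvd, which decarboxylates mevalonate diphosphate, had the lowest value, -0.57 (95% interval -0.90 to -0.23; limma, adjusted p = 0.261), with a median of 12.5 FPKM in cold and 9.05 in cold plus fasting. Sqle, squalene epoxidase, stood at -0.44 (-0.70 to -0.18), and Cyp51, lanosterol demethylase, at -0.42 (-0.67 to -0.18). Srebf2, the gene of the factor that drives the pathway, stood at -0.05 (-0.20 to 0.10). Fdft1, squalene synthase, was the exception on the other side at 0.25 (0.02 to 0.48; limma, adjusted p = 0.49). The median of the group was -0.28 within the libraries numbered above 8, -0.22 under quantile normalisation and -0.22 without BKO cold plus fasting replicate 3. It was -0.14 in FF mice, with 2 members below at an unadjusted p under 0.05 (2.22% of all genes), and -0.32 in BKO mice, with 10 (6.24%); the interaction with genotype was called for 0 genes.

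Fatty acid synthesis genes lay slightly below 0 with no gene called. Of 21 members tested 18 lay below 0, and the median was -0.10. At an unadjusted p under 0.05, 7 lay below and 0 above, where 5.69% and 3.47% of all genes did. In FF mice the median was -0.05 with 0 members below at that p (2.22% of all genes), and in BKO mice -0.18 with 9 (6.24%). Scd2, a stearoyl-CoA desaturase, ran from 121 through a median of 146 to 192 FPKM in cold and from 66.3 through 97.7 to 176 FPKM in cold plus fasting, with overlap; its difference was -0.58 (95% interval -0.98 to -0.18; limma, adjusted p = 0.338). Insig1, which holds SREBP back when sterols are plentiful, stood at -0.42 (-0.67 to -0.18), Acss2, which makes acetyl-CoA from acetate, at -0.36 (-0.64 to -0.08), and Mlxipl, the gene of ChREBP, at -0.20 (-0.36 to -0.05). Acly, ATP citrate lyase, ran from 1220 through 1330 to 1710 FPKM in cold and from 1030 through 1130 to 1870 FPKM in cold plus fasting (difference -0.17, interval -0.44 to 0.11). Acaca, acetyl-CoA carboxylase, differed by -0.16 (-0.34 to 0.02), and Elovl6, a fatty acid elongase, by -0.22 (-0.50 to 0.06). Thrsp, the lipogenic Spot 14 gene, stood at medians of 3910 and 3650 FPKM and differed by 0.04 (-0.14 to 0.22), and Srebf1, the gene of SREBP-1, by 0.04 (-0.19 to 0.26). The intervals of all the fatty acid synthesis genes named here lie within 1 log2 unit of 0.

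Glucose handling differed little. Among 21 genes of glucose uptake and glycolysis 0 were called, the values ran from -0.19 to 0.08, and the intervals of 20 lay within 0.5 log2 units of 0. Slc2a4, the insulin-responsive glucose transporter GLUT4, ran from 320 through 355 to 374 FPKM in cold and from 297 through 323 to 389 FPKM in cold plus fasting (difference -0.07, 95% interval -0.19 to 0.04). Hk2, hexokinase, differed by 0.06 (-0.21 to 0.34) and Txnip, which restrains glucose uptake, by 0.00 (-0.45 to 0.46). Gapdh was listed at a median of 2.49 FPKM in cold where the neighbouring enzyme gene Aldoa stood at 4530 FPKM, so its level is doubtful. Of 14 genes around pyruvate dehydrogenase 0 were called and 13 had intervals within 0.5. Pdk4, the kinase that switches pyruvate dehydrogenase off in fasting, ran from 836 through 914 to 1430 FPKM in cold and from 600 through 721 to 1270 FPKM in cold plus fasting (difference -0.26, interval -0.57 to 0.06).

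Fat release and oxidation genes gave no calls. Of 16 lipolysis and lipid droplet genes tested 0 were called, and the median was -0.01. The values ran from -0.33 to 0.48, and 14 had intervals within 0.5 log2 units of 0. At an unadjusted p under 0.05, 2 lay above (3.47% of all genes) and 2 below (5.69%). All 28 fatty acid oxidation genes and all 44 nuclear genes of oxidative phosphorylation had intervals within 0.5 log2 units, with medians of 0.06 each and 0 called. In the latter group 41 members lay above 0, but 26 did so under quantile normalisation and 30 without BKO cold plus fasting replicate 3. Cpt1b, which admits fatty acids to mitochondria, differed by 0.03 (95% interval -0.09 to 0.15). Pnpla2, adipose triglyceride lipase, stood at medians of 1490 FPKM in cold and 1660 FPKM in cold plus fasting (difference 0.17, interval 0.04 to 0.30; limma, adjusted p = 0.384). Lpl, which frees fatty acids from lipoproteins, differed by -0.01 (-0.23 to 0.22), and its secreted regulators Angptl4 and Angptl8 by -0.02 (-0.39 to 0.35) and 0.40 (-0.34 to 1.14).

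Among 26 genes of thermogenesis and brown adipocyte identity 0 were called, and the median was 0.01. At an unadjusted p under 0.05, 3 lay below and 0 above, where 5.69% and 3.47% of all genes did. In all, 12 members lay below 0, and 17 did so under quantile normalisation, with a median of -0.03. Dio2, which makes active thyroid hormone, ran from 22 through 38.7 to 52.2 FPKM in cold and from 15.1 through 23.8 to 58.0 FPKM in cold plus fasting (difference -0.37, 95% interval -0.95 to 0.21), and the groups overlapped across most of their range. Ppargc1a, the coactivator of mitochondrial genes, differed by -0.33 (-0.69 to 0.03), Elovl3, an elongase induced by cold, by -0.24 (-0.41 to -0.07), and Fgf21, a hormone gene, by -0.11 (-0.48 to 0.26). Ucp1 itself cannot be compared: the deposited values are exactly 0 in all 8 cold libraries, and 8700, 7860 and 6690 FPKM in FF and 7780, 7970 and 8000 FPKM in BKO mice in cold plus fasting, so the zeros were taken as failed estimates. Gpd1, Fasn and Scd1, which code for glycerol-3-phosphate dehydrogenase, fatty acid synthase and the main desaturase, are listed at 0 in all 14 libraries and have no value here.

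Genes known to answer hormones of fasting gave no calls in the cold. Of 19 glucocorticoid-responsive genes tested the median was 0.13, and 0 were called. At an unadjusted p under 0.05, 3 lay above (3.47% of all genes) and 2 below (5.69%). Cdkn1a, a cell cycle inhibitor, had the highest value, 0.48 (95% interval 0.29 to 0.68; limma, adjusted p = 0.101). Fkbp5, a chaperone gene often read as a marker of glucocorticoid action, ran from 1.08 through 1.17 to 1.45 FPKM in cold and from 1.05 through 1.77 to 2.04 FPKM in cold plus fasting (difference 0.27, interval 0.08 to 0.46; limma, adjusted p = 0.354). Klf15, which glucocorticoids induce in other tissues, differed by 0.34 in each genotype (pooled interval 0.09 to 0.59; limma, adjusted p = 0.379). Foxo1 differed by 0.02 (-0.21 to 0.25) and Irs2, an insulin receptor substrate gene that varied widely, by -0.23 (-1.21 to 0.75). The 16 immediate-early genes had a median of -0.31, and 0 were called. At an unadjusted p under 0.05, 6 lay below (5.69% of all genes) and 0 above (3.47%). Nr4a1 among them ran from 10.5 through 24.2 to 103 FPKM in cold and from 1.18 through 7.80 to 53.5 FPKM in cold plus fasting, with wide overlap (difference -1.92, interval -3.46 to -0.39; limma, adjusted p = 0.415).

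**Figure D3:**
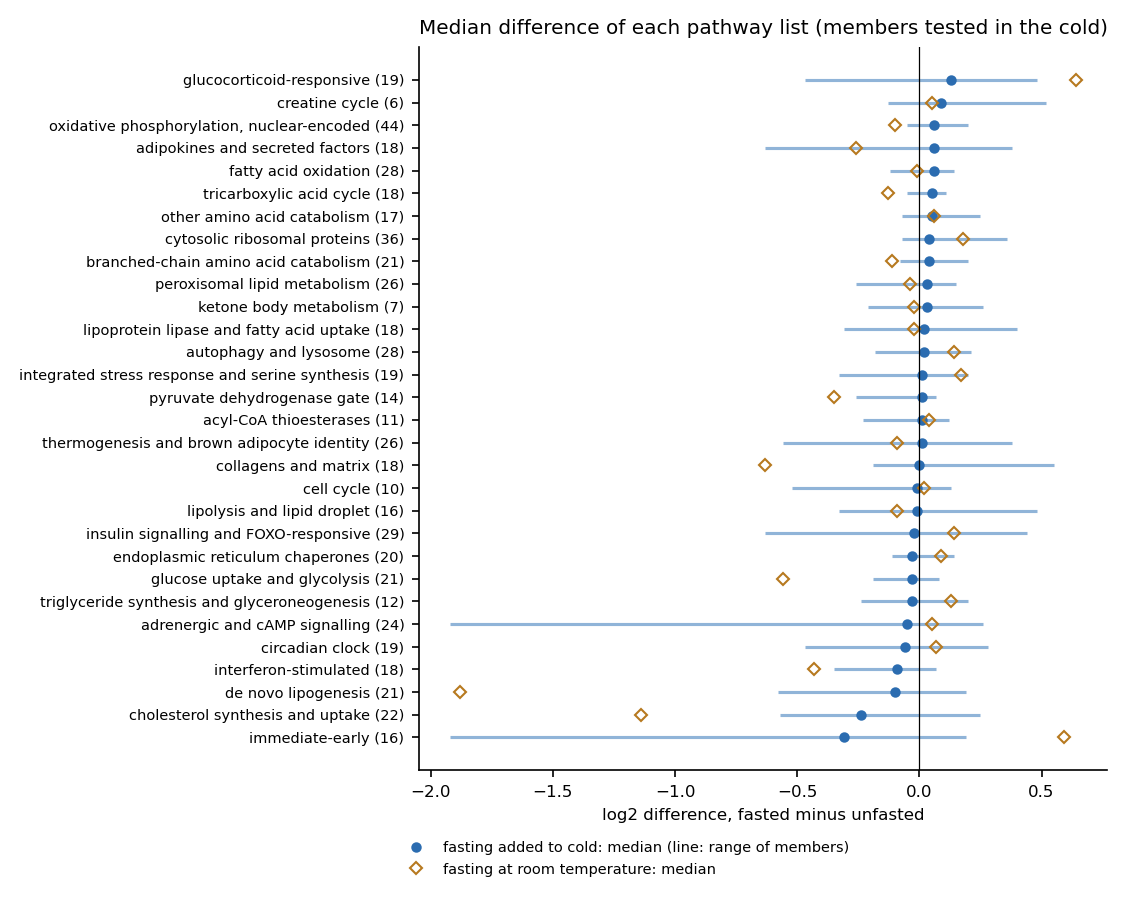
Median log2 difference, fasted minus unfasted, of the 30 pathway lists (members tested in the cold in brackets; the marker sets of other cell types are not shown); blue points and lines give the median and range of members for fasting added to cold, open ochre diamonds the median for fasting at room temperature. The blue medians lie between -0.31 and 0.13, and the diamond of de novo lipogenesis lies at -1.88.

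Within each genotype 0 of 12093 genes were called, with 447 genes (3.7%) at an unadjusted p under 0.05 in FF and 1151 (9.52%) in BKO mice. The difference of the response between genotypes, tested as an interaction, was called for 0 genes as well, with 366 (3.03%) at an unadjusted p under 0.05. The 95% interval of that interaction lay within 0.5 log2 units for 60.1% of genes and within 1 unit for 95.7%. Scd2 differed by -0.18 in FF and -0.98 in BKO mice, an interaction of -0.80 ± 0.32 (SE; limma, adjusted p = 0.999). Under array weights, which give noisy libraries less say, 659 genes were called in BKO mice (291 higher, 368 lower), and 42 with both genotypes (7 higher, 35 lower).

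Fasting was also studied at room temperature, in 6 fasted against 6 fed libraries of the same 2 genotypes, which share no library with the 14 above. The change in the cold minus the change at room temperature was tested in 1 limma fit of all 26 libraries, on 12702 genes. It differed from 0 for 4246 genes, with the change higher in the cold for 2154 (17%) and lower for 2092 (16.5%). All 3 fasted FF libraries at room temperature have numbers of 8 or below. The count was 3137 with library series as a covariate, 2740 from FF libraries alone and 1660 from BKO libraries alone, which all have numbers above 8. The last 2 values were added after the data had been seen. Whether the fasts lasted equally long in both settings is not given in the sources used here, and that cannot be told apart from the temperature.

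Lipid synthesis genes showed the contrast most plainly among the lists described. At room temperature, fasting lowered 20 of 21 lipogenic genes (24.2% of all genes were called lower there), with a median of -1.88, and in the cold their median was -0.10. The difference between the 2 responses was called for 19 of them, all with the higher response in the cold. Over all genes 17% were called higher and 16.5% lower. The median difference of the 21 lipogenic genes was 1.45. From BKO libraries alone 16 were called higher (6.93% of all genes were) and from FF libraries alone 15 (11%). Acly stood between 685 and 1710 FPKM in the fed and between 52.7 and 278 FPKM in the fasted libraries at room temperature, where the cold plus fasting libraries stood between 1030 and 1870 FPKM. The fasted groups did not overlap, and the difference of responses was 3.20 ± 0.29 (SE; limma, adjusted p = 4.97e-08). Scd2 lay between 3.81 and 8.21 FPKM in the room temperature fasted libraries against 66.3 to 176 FPKM in cold plus fasting (difference of responses 3.81 ± 0.33 SE; limma, adjusted p = 2.49e-08). Thrsp was at 494 to 1070 FPKM against 3530 to 5020 FPKM in the same groups (2.25 ± 0.20 SE; limma, adjusted p = 4.97e-08). Pnpla3, Acaca and Srebf1 differed by 2.45, 2.42 and 2.22 between the responses.

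**Figure D4:**
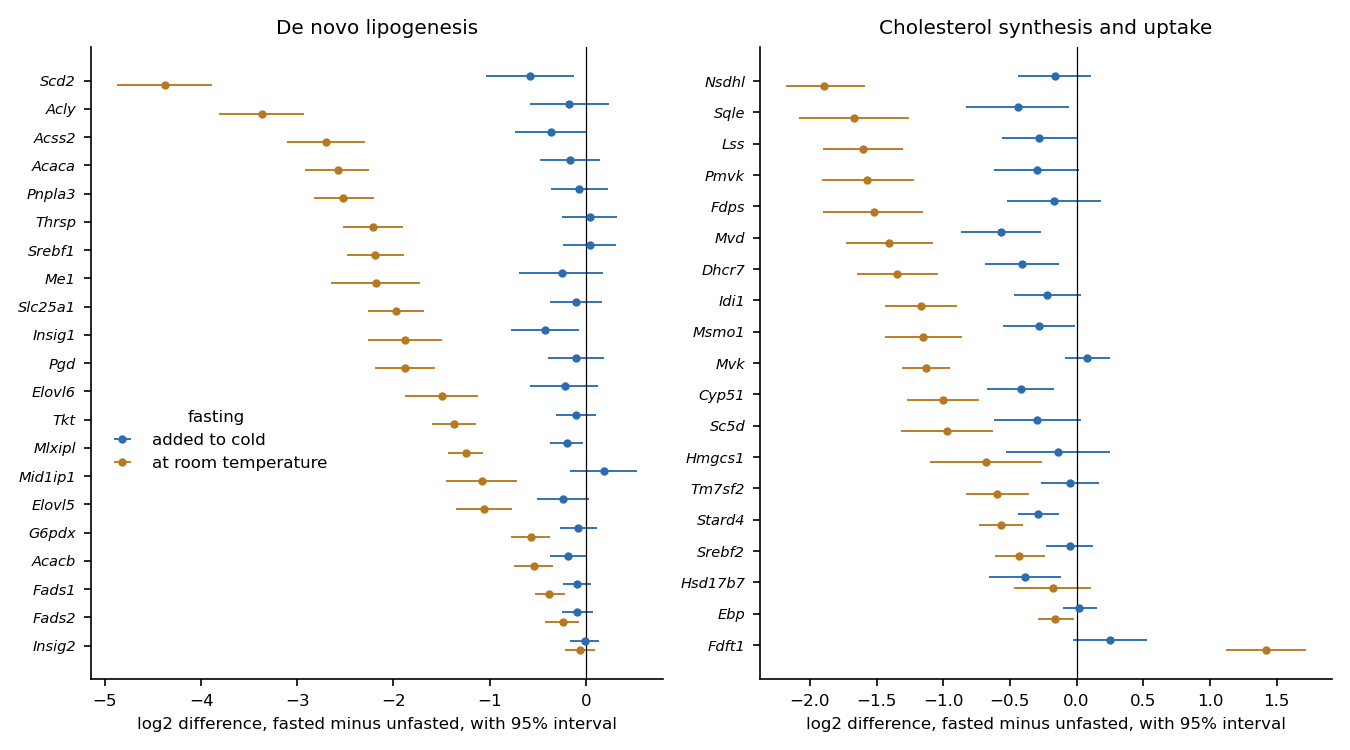
Log2 difference with 95% interval for members of 2 lists (some members of the cholesterol list are not shown), fasting added to cold (blue) and fasting at room temperature (ochre), from the fit of 26 libraries. For de novo lipogenesis the blue points lie between -0.58 and 0.19 and the ochre points between -4.38 and -0.06; for cholesterol synthesis and uptake the ranges are -0.57 to 0.25 and -1.89 to 1.42.

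For cholesterol synthesis both responses had the same sign in most members. At room temperature 19 of 22 members were called lower and 1, Fdft1, higher, where 24.2% of all genes were called lower and 23.2% higher; the median was -1.14. The difference of responses was called higher in the cold for 16 members and lower for 1, Fdft1, at -1.17 (median 0.86). Nsdhl, Lss and Mvk, enzymes of the pathway, differed by 1.72, 1.32 and 1.21 between the responses. Among glycolysis genes the response was called higher in the cold for 15 of 21 and lower for 1. Over all genes 17% were called higher and 16.5% lower. Pfkl, phosphofructokinase, led the glycolysis genes at 1.60, with Eno1 at 1.33, Slc2a4 at 1.29 and Pkm at 1.01. From BKO libraries alone 11 glycolysis genes were called higher (6.93% of all genes were), and from FF libraries alone 10 (11%). Of 14 pyruvate dehydrogenase genes 8 were called higher, among them the E1 subunit gene Pdhb at 1.09, Dlat at 0.70 and Pdhx at 0.67, and 2 lower, a share near that of all genes, the kinases Pdk4 at -0.73 and Pdk2 at -0.51. From BKO libraries alone 5 were called higher (6.93% of all genes), and from FF libraries alone 6 (11%). The call of Pdk4 was lost with the library series as a covariate (limma, adjusted p = 0.0937), from FF libraries alone (0.0999) and from BKO libraries alone (0.083).

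For 12 of 21 glucocorticoid-responsive genes the response to fasting was called lower in the cold than at room temperature, and for 0 higher. Over all genes 16.5% were called lower and 17% higher. The median difference of responses of the 21 was -0.51. From BKO libraries alone 4 were called lower (6.14% of all genes were), with a median of -0.34. From FF libraries alone 10 were called lower (10.6% of all genes were), with a median of -0.74. Fkbp5 stood between 10.5 and 89.6 FPKM in the room temperature fasted libraries and between 1.05 and 2.04 FPKM in cold plus fasting (difference of responses -2.23 ± 0.47 SE; limma, adjusted p = 0.000926). The metallothionein genes Mt1 and Mt2 differed by -1.86 and -2.33, Sult1a1, a sulfotransferase gene, by -1.35 and Mertk, a receptor tyrosine kinase gene, by -0.77. Lpl differed by -0.85, with 1390 to 1760 FPKM in the room temperature fasted libraries and 756 to 1130 FPKM in cold plus fasting. The largest differences downwards were Hmox1, heme oxygenase, at -4.59, Slc7a8, an amino acid transporter gene, at -4.38, Nr4a1 at -4.18, Trim63, a ubiquitin ligase gene of atrophying muscle, at -3.42 and the small RNA gene Snora28 at -3.24. Upwards they were Mir8094 at 3.86, Scd2, Acly, the RNA gene Gm25777 at 3.09 and the fructose transporter gene Slc2a5 at 2.76. The genes of Mir8094, Gm25777 and Snora28 are short and were at 0 in several libraries, so their values are uncertain. The call of Gm25777 was also lost in 20 of 26 fits that left out 1 library (limma, adjusted p of 0.055 to 0.0844). The calls of Nr4a1 (adjusted p = 0.205), Snora28 (0.219), Mir8094 (0.242), Gm25777 (0.187) and Mt2 (0.0507) were lost in limma from BKO libraries alone, and that of Fkbp5 (0.0654) when BKO cold plus fasting replicate 3 was left out of these as well.

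Of the 8 genes that fell in the cold, 5 also lay lower with fasting at room temperature, namely Hcar1 at -3.30, Steap4 at -2.13, Dhcr7 at -1.35, Sh3bp5 at -0.52 and Nes at -0.37. The other 3 lay higher there, Pmepa1 at 0.89, Col27a1 at 0.50 and Nap1l5 at 0.47. Hcar1 had its highest level in the fed libraries at room temperature, 21.4 to 44.8 FPKM, and its lowest in the fasted ones there, 0.559 to 3.31 FPKM. Steap4 likewise stood at 75.5 to 147 FPKM fed and 21.1 to 27.1 FPKM fasted at room temperature, the latter within the range of 20.8 to 28.6 FPKM in cold plus fasting. The test of the difference of responses was passed by Hcar1 (2.49), Steap4 (1.64), Dhcr7 (0.94), Pmepa1 (-1.59), Col27a1 (-1.0) and Nap1l5 (-0.97), and missed by Sh3bp5 (0.13; limma, adjusted p = 0.217) and Nes (-0.23; limma, adjusted p = 0.225). From BKO libraries alone the calls of Dhcr7 (adjusted p = 0.0768) and Nap1l5 (0.144) were lost.

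**Figure D5:**
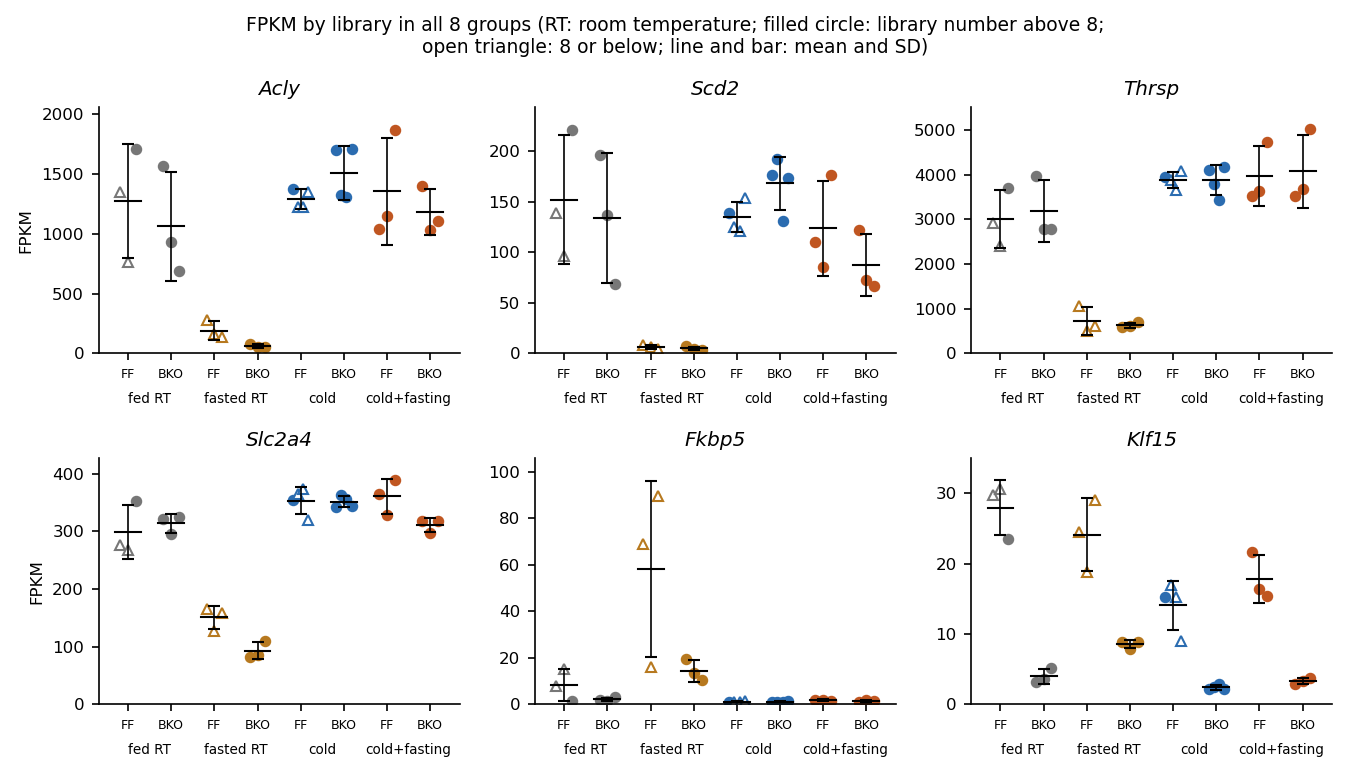
FPKM by library of 3 lipogenic genes, the glucose transporter gene Slc2a4, Fkbp5 and Klf15 in all 8 groups, with group means and SDs; open triangles are libraries with numbers of 8 or below. Acly lies between 52.7 and 278 FPKM in the fasted libraries at room temperature and between 1030 and 1870 FPKM in cold plus fasting.

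Markers of brown adipocytes were at like levels in both conditions, with summed values of 12900 to 16100 FPKM over 9 genes in cold and 13100 to 17300 FPKM in cold plus fasting, Ucp1 left out. Of 10 endothelial genes 9 lay below 0, with a median of -0.12. At an unadjusted p under 0.05, 4 lay below and 0 above, where 5.69% and 3.47% of all genes did. The endothelial genes summed to 274 to 337 FPKM in cold and 233 to 334 FPKM in cold plus fasting. Macrophage genes summed to 72.9 to 107 and 80.0 to 108 FPKM, fibroblast genes to 99.0 to 127 and 105 to 125 FPKM, and Schwann cell genes to 66.3 to 79.0 and 58.2 to 86.8 FPKM in the 2 conditions. The 8 fibroblast and preadipocyte genes tested had a median of 0.17. At an unadjusted p under 0.05, 4 of them lay above (3.47% of all genes) and 1 below (5.69%). Within the libraries numbered above 8 their median was 0.21, with 5 above and 0 below at that p (7.8% of all genes either way). Neutrophil genes stayed at or under 5.72 FPKM, and lymphocyte genes lay between 14.2 and 46.5 FPKM. Of 10 white adipocyte markers Hoxc10, Tcf21 and Wt1 were listed at 0 in all 14 libraries, and the other 7 summed to 22.5 to 56.4 FPKM in cold and 26.8 to 50.6 FPKM in cold plus fasting. Of 10 skeletal muscle genes tested the median was 0.36. It was 0.09 without BKO cold plus fasting replicate 3, 1.15 within the libraries numbered above 8, -0.07 in FF and 0.77 in BKO mice. No marker gene of these lists was called. The part of cell makeup in the falls of Nes and Col27a1, which stromal and vessel cells also express, was not tested.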

How the data were processed

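RNA from brown adipose tissue was sequenced by the authors with Illumina libraries, per the labels' protocols. The deposited table holds FPKM values that the authors computed with STAR, Cufflinks and Cuffdiff on mm10, per the submitters' processing notes; versions and annotation are not given in the sources used here. Of 48432 gene IDs, 48051 matched GENCODE M21 on GRCm38, which gave coordinates. In 33 genes, zeros beside other values of at least 100 FPKM were set to missing. Genes that reached 1 FPKM in 3 or more of the libraries compared were fitted as log2(FPKM + 1), which understates folds of low genes, with limma 3.58.1 in R 4.3.3 (moderation with an intensity trend, Benjamini-Hochberg adjustment, threshold 0.05), with terms for fasting and genotype; effects within genotypes and their difference came from 4 group means of the 14 libraries, and the comparison with room temperature from 8 group means of all 26. The scripts were tested on simulated data. P-values set each difference against the spread between libraries of different animals. That spread also holds any difference between library series where a group mixes them. Alternatives were other pseudocounts, filters, scalings, moderation, weights and library sets, and leaving out each library. The compared samples, gene lists (30 pathways, 10 sets of markers) and tests were chosen with earlier results of these data known. Genes were named if among 26 fixed genes, the largest called changes without overlap, or the called members of 5 described lists with the smallest adjusted p; other list members and genes named for their extreme values were chosen after their values were seen. A few genes are counted in their lists but not reported here by name.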

Additional observations from a re-analysis of the deposited data

Results flagged for a closer look

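The 106 groups of 4 cold libraries of the genes named by rule (FF and BKO in turn; genes named in the text only as list members or for their values were not searched) were searched for a library far from the other 3, and 7 were found, where chance gives about 1 in 20. Angptl4 stood at 71.4 FPKM in FF cold replicate 2, where the other 3 lay between 43.7 and 48.1. Elovl3 stood at 830 FPKM in BKO cold replicate 4 against 590 to 595 in the others, and Nap1l5 at 8.16 FPKM in FF cold replicate 1 against 6.68 to 6.90. A pair of short RNA genes had 2 such libraries each: Gm25777 at 9.03 FPKM in FF cold replicate 4 and 12.1 FPKM in BKO cold replicate 1, with the others at 0, and Snora28 at 31.7 FPKM in FF cold replicate 1 against 7.61 to 8.66, and 21.2 FPKM in BKO cold replicate 3 against 7.71 to 9.56.

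Responses to fasting differed between cold and room temperature in 4246 genes by a test of the difference itself (limma, adjusted p under 0.05; cold minus room temperature on the log2 scale). Lipogenic genes among those named were Scd2 (3.81), Acly (3.20), Pnpla3 (2.45), Acaca (2.42), Thrsp (2.25), Srebf1 (2.22) and Elovl6 (1.28). Sterol genes were Nsdhl (1.72), Lss (1.32), Mvk (1.21) and Dhcr7 (0.94). Glucose and pyruvate genes were Slc2a5 (2.76), Pfkl (1.60), Eno1 (1.33), Slc2a4 (1.29), Pdhb (1.09), Pkm (1.01), Dlat (0.70), Pdhx (0.67), Hk2 (0.62), Pdk2 (-0.51) and Pdk4 (-0.73). Hormone-responsive and stress genes were Hmox1 (-4.59), Nr4a1 (-4.18), Trim63 (-3.42), Mt2 (-2.33), Fkbp5 (-2.23), Mt1 (-1.86), Sult1a1 (-1.35), Dio2 (-1.22), Ppargc1a (-1.01) and Mertk (-0.77). Others were Hcar1 (2.49), Steap4 (1.64), Angptl8 (1.51), Lpl (-0.85), Nap1l5 (-0.97), Col27a1 (-1.0), Pmepa1 (-1.59), Slc7a8 (-4.38), and the short RNA genes Mir8094 (3.86), Gm25777 (3.09) and Snora28 (-3.24). Of these 43 calls 39 held with library series as a covariate, 39 from FF libraries alone and 33 from BKO libraries alone. Those lost with the covariate were Angptl8, Hk2, Pdk4 and Ppargc1a. From BKO libraries alone Dio2 differed by -0.05 (adjusted p = 0.964) and Ppargc1a by -0.18 (adjusted p = 0.85), both in limma. With each of the 26 libraries left out in turn, the call of Gm25777 was lost in 20 fits and that of Ppargc1a in 8 (limma, adjusted p of 0.0504 to 0.0595).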

How the results depend on the processing

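The 8 calls over both genotypes became 0 without a filter on low values, 0 with library series as a covariate, 2 in the fit of all 26 libraries, 13 under quantile normalisation and 42 under array weights, and leaving out each library gave 4 to 14; the cause was not tested. In FF mice the count of 0 became 3 without the filter and 1 with zeros kept as deposited, and 0 to 2 with libraries left out (2 without FF cold plus fasting replicate 2). In BKO mice it became 659 under array weights and 1 with zeros kept, and 0 to 5 with libraries left out (5 without BKO cold plus fasting replicate 1). Within the libraries numbered above 8 it became 1 without the filter, 83 under array weights and 1 with zeros kept, and 0 to 1 with libraries left out. The interaction count became 1 without the filter, and 0 to 0 with libraries left out. The 4246 differences from room temperature became 1660 from BKO libraries alone, 2740 from FF libraries alone and 1402 from BKO libraries without cold plus fasting replicate 3, all 3 chosen after seeing the data, and 3809 to 4264 with single libraries left out. The gene made significant by zeros kept as deposited was Ucp1. Values near 0 changed sign: Cpt1b -0.03, Thrsp -0.02 and Txnip -0.02 under quantile normalisation, Lpl 0.02 and Thrsp -0.08 under array weights, and Foxo1 -0.01 and Hk2 -0.07 with library series as a covariate. With libraries left out the ranges were -0.18 to 0.09 for Angptl4, 0.00 to 0.06 for Cpt1b, -0.19 to 0.00 for Fgf21, -0.08 to 0.08 for Foxo1, -0.02 to 0.13 for Hk2, -0.51 to 0.02 for Irs2, -0.07 to 0.07 for Lpl, -0.04 to 0.08 for Thrsp and -0.17 to 0.12 for Txnip, and the difference of Dio2 from room temperature ran from -1.47 to -1.0; from BKO libraries without cold plus fasting replicate 3 it was 0.05. No paired analysis was possible because the labels give no replicate numbers. Depth is unknown, so the precision of low genes is known only from the spread between libraries.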
